A study of Mus musculus with 4 samples.

Results

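The genes described here encode the proteins that prepare origins of DNA replication and then build and run the replication fork. They are 47 genes, taken by symbol from a list drawn up by function: the origin recognition complex and its loading factors, the MCM helicase and its activators, the replicative polymerases and primase, the sliding clamp and its loaders, and proteins that protect, join or package the new strands. All probe sets that the platform annotation assigns to a single one of these symbols were taken, 100 in all for 46 genes. Where a gene had several, the one with the highest mean over the 4 arrays stands for it below. No probe set was assigned to Chaf1a alone, so that gene was not analysed here. The 46 genes all passed the filter on dim probe sets, as did 87 of their 100 probe sets. They stand among 12832 genes tested and 18194 named on the array.

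The study compared long-term haematopoietic stem cells (LT-HSC), the marrow fraction that rebuilds blood lastingly after transplantation, with a short-term fraction (ST-HSC), the neighbouring fraction whose grafts are shorter lived. LT-HSC were sorted from bone marrow as lineage-negative, cKit+, Sca1+, CD34- and CD135- cells, and ST-HSC by the same gate but CD34+. The labels conflict for the ST-HSC samples, whose tissue field reads LT-HSC, and the groups follow the sample titles and the CD34+ gate. All mice were controls without the MxCre transgene, on a C57BL/6 background, and each had been given poly(I:C), a double-stranded RNA that induces interferon, in 7 injections. Mice were 7.5 weeks old and 4 weeks past the final injection for both LT-HSC arrays and for ST-HSC replicate 2. For ST-HSC replicate 3 they were 8.5 weeks old and 3 weeks past it. There were 2 Affymetrix arrays per group. Separate animals or pools are not stated for the LT-HSC arrays, and p-values may therefore measure technical spread only.

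DNA is licensed for replication in G1, when the origin recognition complex, CDC6 and CDT1 load the MCM2 to MCM7 ring onto origins. The kinases CDC7 with DBF4 and the cyclin-dependent kinases then recruit CDC45 and GINS, which turn the ring into an active helicase. Primase with polymerase alpha starts each strand, polymerases delta and epsilon extend it, and the PCNA clamp, loaded by RFC, holds them on the template. Many of these genes are transcribed as cells pass from G1 into S phase, under control of E2F factors. Most LT-HSC are known to rest outside the cell cycle, and ST-HSC to divide more often.

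The arrays matched the gate on the marker that separates it. In deposited intensity units, used wherever a gene is said to read a value, Cd34 read 18.3 and 23.5 on the LT-HSC arrays and 841 and 1142 on the ST-HSC arrays (log2 difference -4.78, SE 0.31, adjusted p = 0.000473). Kit and Flt3, the genes of cKit and CD135, differed by -1.02 (adjusted p = 0.0498) and -1.37 (adjusted p = 0.0631). The summed intensity of 8 plasma cell markers was 47443 and 47856 on the LT-HSC arrays, against 1747 and 2796 on the ST-HSC arrays, and all 8 were called higher in LT-HSC. The summed intensity of 10 markers of maturing granulocytes was 3907 and 533 in LT-HSC, against 3589 on ST-HSC replicate 2 and 51165 on ST-HSC replicate 3, and 0 of the 10 were called, 3 of them with an unadjusted p under 0.05. B cell markers summed to 5105 and 5876 on the LT-HSC arrays, against 593 and 904 on the ST-HSC arrays (4 of 8 tested called higher). Macrophage and dendritic cell markers summed to 9092 and 10437 on the LT-HSC arrays, against 2031 and 1781 on the ST-HSC arrays. Of 10 tested, Cd68, Cd74, H2-Aa and H2-Ab1 were called higher, and Cd74 alone read 5474 and 6529 on the LT-HSC arrays. The other 6 did not pass, and 3 of the 10 had differences below 0. Of 5 tested T and NK cell markers 4 were called higher in LT-HSC and 1 lower, and of 5 erythroid markers 1 was called lower. Of 9 stem cell markers 0 were called, and 7 had differences below 0. Among these, Robo4 (-0.92) and Tek (-0.91) had an unadjusted limma p under 0.05. The ratio of 3′ to 5′ signal of the beta-actin control was 18.4 and 19.6 in LT-HSC, 19.5 on ST-HSC replicate 2 and 6.65 on ST-HSC replicate 3. ST-HSC replicate 3 thus stands apart on the granulocyte markers and on the ratio. Both LT-HSC arrays do so on the plasma cell and B cell markers and on Cd68, Cd74, H2-Aa and H2-Ab1. The part of these differences in the results below was not tested. In such bulk samples, fewer cells of a type and less RNA per cell cannot be told apart.

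Replication genes called lower in LT-HSC than in ST-HSC were found at every step of the process. In origin licensing they were 4 of 9, and the median log2 difference of that step, -0.53, lay above the 25th percentile of all genes (-0.60). Of the 46 genes, 30 were called lower in LT-HSC, 0 were called higher and 16 did not pass (limma, Benjamini-Hochberg adjusted over all 27022 probe sets, threshold 0.05), and none was higher at an unadjusted p under 0.05 either. Among all 12832 genes, 6.41% were called lower and 7.92% higher. The called genes were lower by 2.12-fold (Cdt1) to 6.63-fold (Dscc1), and the upper end depends on the pseudocount: Dscc1 was at -3.12 on the log2 scale with a pseudocount of 1, -2.73 with 16 and -2.02 with 64. The median log2 difference of the 46 genes, LT-HSC minus ST-HSC on the log2(intensity + 16) scale, was -1.52, against -0.08 for all genes. In 42 of the 46, both LT-HSC arrays lay below both ST-HSC arrays, a pattern shown by 35.7% of all genes. Orc4 had both LT-HSC arrays above on the normalized scale, as did 28.6% of all genes, and Orc1, Pold3 and Rfc3 overlapped.

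**Figure D1:**
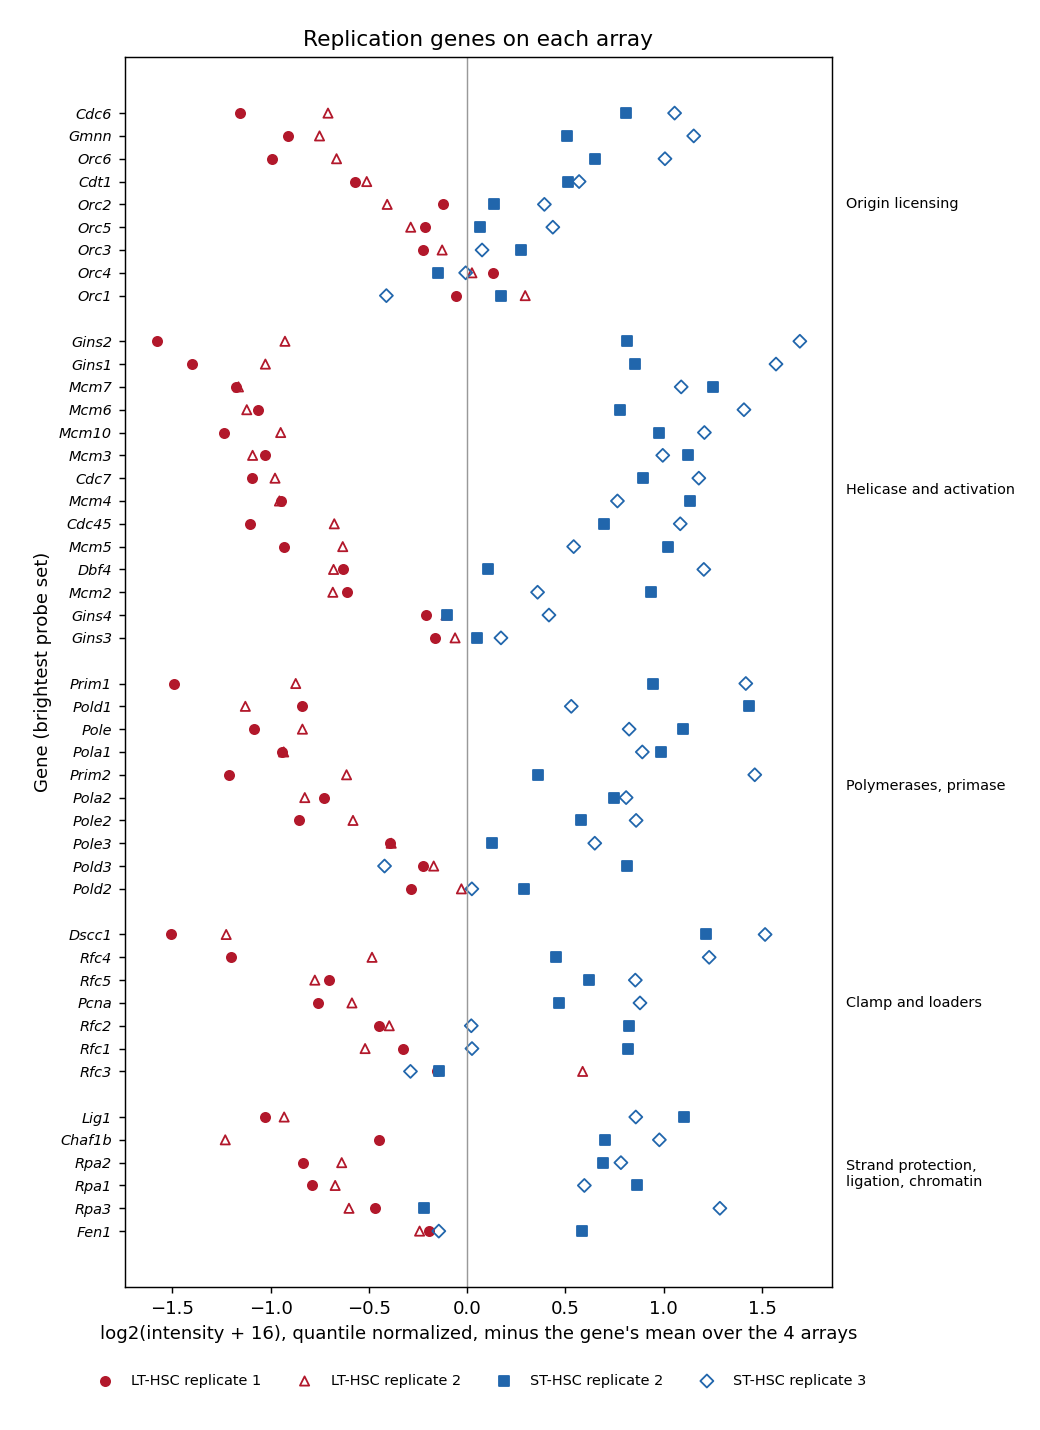
Quantile-normalized log2(intensity + 16) of the brightest probe set of 46 replication genes on each of the 4 arrays, as the deviation from the gene's mean over the arrays (x axis). Genes run down the page by step, LT-HSC arrays are red and ST-HSC arrays blue. For 42 genes both red points lie left of both blue points, and the points of Orc1, Pold3 and Rfc3 overlap.

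Nearly all of these calls needed both LT-HSC arrays. Without LT-HSC replicate 1, or without LT-HSC replicate 2, Mcm7 alone passed, so the count was 1 in either case (Mcm7 adjusted p = 0.0273 and 0.031), and 0.0863% and 0.156% of all genes were called lower. Without ST-HSC replicate 2 or ST-HSC replicate 3, 35 genes passed, with 19.3% and 14.6% of all genes called lower. All 30 called genes had both LT-HSC arrays below both ST-HSC arrays, as had all 822 genes called lower among all genes. Leaving out 1 array could therefore hardly turn their direction, and none of the 30 turned. The median over the 46 genes lay between -1.65 and -1.38. The ST-HSC arrays, the less alike pair, had a median SD of 0.257 over the 46 genes, against 0.103 for the LT-HSC arrays. Without ST-HSC replicate 3, the array with high granulocyte markers, the median was -1.39. With a lone ST-HSC array the spread is that of the LT-HSC arrays only. Calls in that fit therefore cannot show what part the granulocyte markers had, which was not tested.

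**Figure D2:**
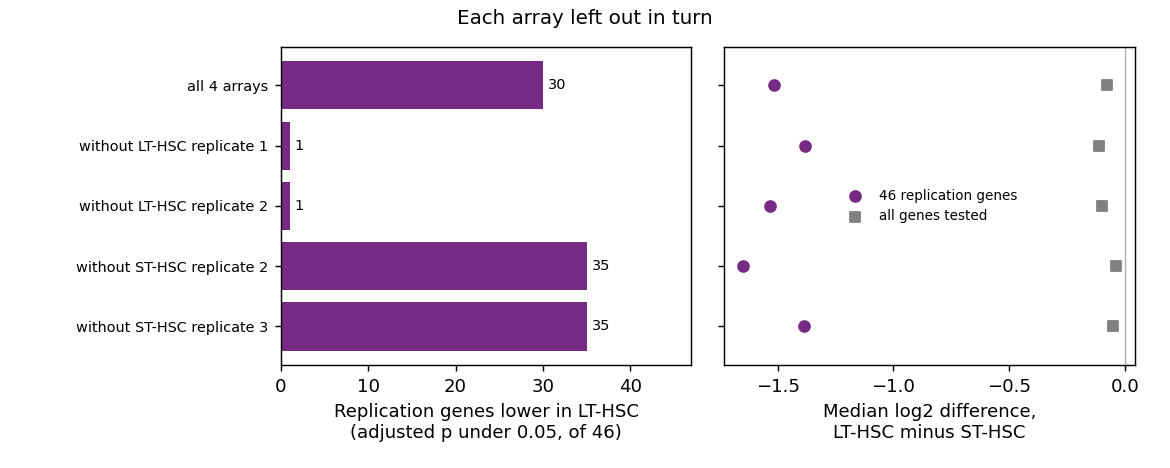
Number of the 46 replication genes called lower in LT-HSC (left, bars) and median log2 difference, LT-HSC minus ST-HSC (right), with all 4 arrays and with each array left out. The count is 30 with all arrays, 1 without either LT-HSC array and 35 without either ST-HSC array, while the median of the replication genes stays between -1.65 and -1.38 and that of all genes near 0.

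The promoters of several of these genes carry the letters that E2F factors are known to bind. Whether the letters bear on the differences between the groups was not tested. Promoter windows from RefSeq (build GRCm38.p6, 250 bases before to 50 after the start) were matched by symbol for 38 of the 47 genes. The letters TTTCCCGC, TTTGGCGC, TTTCGCGC and TTTGCCGC were searched on both strands. At least 1 of them stood in the windows of 15 of the 38 genes (39.5%), against 2.26% of all 32851 windows and 4.54% of the 10363 tested genes with a window. Of all genes called lower in LT-HSC, 10.3% held them. They stood in 10 of 23 called replication genes with a window and in 5 of 14 that did not pass. The shorter letters CCAAT, bound by the factor NF-Y, stood in 22 of the 38 genes, against 42.4% of the tested genes. The 170 bases before the start are printed 5′ to 3′ on the gene's strand, with the E2F letters in capitals, for 4 genes that were called lower (Mcm5, Mcm6, Mcm7 and Cdc6) and for 2 that did not pass (Orc3 and Gins3).
Mcm5: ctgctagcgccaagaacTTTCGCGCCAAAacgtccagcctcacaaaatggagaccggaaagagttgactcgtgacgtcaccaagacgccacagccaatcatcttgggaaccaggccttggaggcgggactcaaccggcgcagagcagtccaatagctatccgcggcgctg
Mcm6: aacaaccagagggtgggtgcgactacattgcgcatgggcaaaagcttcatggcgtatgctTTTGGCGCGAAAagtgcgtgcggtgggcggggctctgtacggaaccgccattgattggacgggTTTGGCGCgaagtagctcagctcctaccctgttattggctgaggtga
Mcm7: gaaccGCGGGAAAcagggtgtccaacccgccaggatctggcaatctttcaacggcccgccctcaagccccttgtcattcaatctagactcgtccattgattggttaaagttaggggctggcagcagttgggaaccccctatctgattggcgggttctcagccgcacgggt
Cdc6: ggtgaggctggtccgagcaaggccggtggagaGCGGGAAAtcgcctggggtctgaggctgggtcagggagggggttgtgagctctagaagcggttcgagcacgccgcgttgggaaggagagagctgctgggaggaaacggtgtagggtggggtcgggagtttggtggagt
Orc3: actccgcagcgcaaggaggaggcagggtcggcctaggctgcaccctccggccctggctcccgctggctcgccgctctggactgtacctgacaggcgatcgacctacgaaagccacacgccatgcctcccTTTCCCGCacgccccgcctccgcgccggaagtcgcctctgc
Gins3: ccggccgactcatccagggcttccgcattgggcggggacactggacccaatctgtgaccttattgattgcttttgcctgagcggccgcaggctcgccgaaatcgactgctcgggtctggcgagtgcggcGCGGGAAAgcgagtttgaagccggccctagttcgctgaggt
These stretches lie at chr8:75109339-75109508 on the plus strand (Mcm5), chr1:128359706-128359875 on the minus strand (Mcm6), chr5:138171884-138172053 on the minus strand (Mcm7), chr11:98907981-98908150 on the plus strand (Cdc6), chr4:34614943-34615112 on the minus strand (Orc3) and chr8:95633389-95633558 on the plus strand (Gins3). In Mcm5 and in Mcm6 a pair of matches on opposite strands overlap, beginning 153 and 149 bases before the start of Mcm5 and 110 and 106 bases before that of Mcm6. Mcm6 has a further match 47 bases before the start. The single matches of Orc3 and Gins3, both 41 bases before the start, are TTTCCCGC and its reverse complement GCGGGAAA, and GCGGGAAA also stands in Mcm7 and Cdc6. A match is a run of letters, and no binding was measured.

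Origin licensing showed lower transcripts for the factors that load the helicase while most subunits of the origin recognition complex did not pass. Of 9 genes 4 were called lower in LT-HSC and 0 higher, with a median log2 difference of -0.53. Cdc6, which encodes the ATPase that joins the complex at origins in G1, read 91.1 and 153 on the LT-HSC arrays and 458 and 559 on the ST-HSC arrays. Every LT-HSC value of Cdc6 lay below every ST-HSC value, and the gene was 3.64-fold lower (-1.86, SE 0.31, adjusted p = 0.0145). Cdt1, whose protein brings MCM rings to origins, read 1256 and 1265 on the LT-HSC arrays and 2218 and 2345 on the ST-HSC arrays (-1.08, SE 0.18, adjusted p = 0.0148). Gmnn encodes geminin, the inhibitor of CDT1 that prevents a repeat of licensing, and read 469 and 528 on the LT-HSC arrays against 1171 and 1900.1 on the ST-HSC arrays (-1.66, SE 0.28, adjusted p = 0.0156). The loader and its inhibitor were thus both lower in LT-HSC. Their groups did not overlap, a pattern in this direction that 35.7% of all genes had.

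Of the 6 subunits of the origin recognition complex, Orc6 alone was called on its brightest probe set. It read 69.6 and 113 on the LT-HSC arrays and 307 and 378 on the ST-HSC arrays, and was 3.15-fold lower (-1.66, SE 0.32, adjusted p = 0.0221). Orc2 read 186 and 165 on the LT-HSC arrays and 261 and 292 on the ST-HSC arrays, a difference of -0.53 with a 95% interval from -1.24 to 0.19. Orc3 and Orc5 differed by -0.35 and -0.50, with intervals from -1.02 to 0.32 and from -1.20 to 0.20. Orc4 had normalized log2 values of 7.63 and 7.52 on the LT-HSC arrays and 7.35 and 7.49 on the ST-HSC arrays, a difference of 0.16 (interval -0.54 to 0.85), while its other 3 tested probe sets lay between -0.75 and -0.63 and did not pass. Further probe sets were at -0.71 and -0.80 for Orc3 and at -0.45 for Orc2, and did not pass. The intervals of these 4 subunits, which are not adjusted, all include 0. Those of Orc2, Orc3 and Orc5 lie mostly below 0, with low ends of -1.02 or lower, so they leave room for lower levels in LT-HSC that are not small.

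Orc1, the largest subunit and an ATPase whose level is known to vary over the cell cycle in mammals, gave different answers by probe set. The brightest read 38.6 and 71.3 on the LT-HSC arrays and 68.1 and 34.4 on the ST-HSC arrays, with overlapping groups (0.24, SE 0.35, adjusted p = 0.679). The other read 1.97 and 11.4 on the LT-HSC arrays and 62.7 and 91.0 on the ST-HSC arrays, without overlap (-1.96, SE 0.35, adjusted p = 0.0189). With probe sets averaged per gene, Orc1 was at -0.86 (adjusted p = 0.0478). Neither probe set was bright, and which of them measures the Orc1 transcript was not tested.

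The helicase was the step with the lowest median, -1.99 over 14 genes, of which 11 were called lower in LT-HSC and 0 higher. All 6 subunits of the MCM2 to MCM7 ring, the motor that unwinds DNA at the fork, were called lower, by 2.45-fold (Mcm2) to 5.05-fold (Mcm7). Mcm7 read 964 and 937 on the LT-HSC arrays and 4570.3 and 3837 on the ST-HSC arrays (-2.34, SE 0.18, adjusted p = 0.000818), the smallest p of the 46 genes. Mcm6 read 637 and 596 on the LT-HSC arrays and 1988 and 3058 on the ST-HSC arrays (-2.18, SE 0.26, adjusted p = 0.00468). Mcm3 read 138 and 149.7 on the LT-HSC arrays and 699.6 and 682 on the ST-HSC arrays (-2.12, SE 0.27, adjusted p = 0.00608). Mcm4 read 395 and 399 on the LT-HSC arrays and 1565 and 1306 on the ST-HSC arrays (-1.90, SE 0.25, adjusted p = 0.00645). For these 4 genes the LT-HSC values were close to each other and far below both ST-HSC values.

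Of the ring's 17 tested probe sets 15 were called lower, and all 17 had negative differences. The sizes differed by probe set. Mcm2 was at -1.29 (SE 0.26, adjusted p = 0.0259) on its brightest probe set and at -2.58 (SE 0.33, adjusted p = 0.00567) on the other. The 4 probe sets of Mcm7 ran from -2.98 to -1.58 and all passed. Of the 5 of Mcm3, 3 passed, with a range of -2.92 to -0.97. Mcm5 was at -1.56 (adjusted p = 0.00987) and -2.05 (adjusted p = 0.00822). The brightest probe sets of Mcm3, Mcm5, Pold1 and Fen1 carry the suffix that Affymetrix gives to probes that may also bind other transcripts, and those of Mcm2, Mcm7, Gins2 and Rfc4 the suffix for probes shared by several transcripts.

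Among the activators of the helicase, Cdc7, the kinase that phosphorylates the loaded ring, read 98.1 and 129 on the LT-HSC arrays and 486 and 623 on the ST-HSC arrays and was 4.20-fold lower (-2.07, SE 0.29, adjusted p = 0.0081). Dbf4, its activating subunit, read 186 and 197 on the LT-HSC arrays and 360.2 and 764 on the ST-HSC arrays, without overlap, and did not pass (-1.31, SE 0.40, adjusted p = 0.0802). Dbf4 was called when either ST-HSC array was left out (-1.93 without replicate 2, -0.76 without replicate 3), and with no normalization between arrays (adjusted p = 0.0492). Cdc45, a subunit of the active helicase, was 3.44-fold lower (-1.78, SE 0.32, adjusted p = 0.0177) on its brightest probe set, and a dim further one at 0.73 did not pass (adjusted p = 0.463). Mcm10, which helps to start unwinding, was 4.54-fold lower (-2.18, SE 0.31, adjusted p = 0.00822).

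The 4 subunits of GINS, which bind each other in equal number in the active helicase, did not have like values. Gins1 read 55.7 and 97.4 on the LT-HSC arrays and 393 and 651 on the ST-HSC arrays, 5.37-fold lower (adjusted p = 0.00998). Gins2 read 17.7 and 50.3 on the LT-HSC arrays and 208 and 360.2 on the ST-HSC arrays, 5.67-fold lower (adjusted p = 0.0146). Gins3 read 105 and 133 on the LT-HSC arrays and 159 and 155 on the ST-HSC arrays, and its difference of -0.22 had an interval from -0.93 to 0.48. Gins4 read 236 and 269 on the LT-HSC arrays and 286 and 395 on the ST-HSC arrays, with a difference of -0.31 and an interval from -1.05 to 0.42. On these brightest probe sets the intervals of Gins1 (-3.28 to -1.57) and Gins2 (-3.50 to -1.51) lie wholly below those of Gins3 and Gins4. A further probe set of Gins1 passed at -1.76 (interval -2.68 to -0.84), and one of Gins2 at -1.49 (interval -2.54 to -0.44) did not. Both of these intervals overlap those of Gins3 and Gins4. The brightest of Gins2 was at -2.97 with a pseudocount of 1 and at -1.75 with 64. The difference between subunits was not itself tested. Gins3 is among the genes printed above whose promoter window holds E2F letters.

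Of 10 genes of polymerases and primase, 7 were called lower in LT-HSC and 0 higher, with a median of -1.69. Polymerase alpha and primase, which lay down the first RNA and DNA of every fragment, were called lower in all 4 subunits. Prim1, the catalytic subunit of primase, read 113 and 208 on the LT-HSC arrays and 721 and 1060.3 on the ST-HSC arrays, 5.15-fold lower (-2.36, SE 0.34, adjusted p = 0.00849). Pola1, the catalytic subunit of polymerase alpha, read 103 and 124 on the LT-HSC arrays and 484 and 468 on the ST-HSC arrays (-1.87, SE 0.28, adjusted p = 0.0103). Pola2, its regulatory partner, read 175 and 179.9 on the LT-HSC arrays and 536 and 597 on the ST-HSC arrays (-1.55, SE 0.27, adjusted p = 0.0167), while its 2 dim further probe sets at -0.46 and -0.40 did not pass. Prim2, the regulatory primase subunit, was at -1.83 (SE 0.45, adjusted p = 0.0452), and its call was lost without the filter on dim probe sets and without the intensity trend. In all 4 genes both LT-HSC arrays lay below both ST-HSC arrays, as in 35.7% of all genes.

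The polymerases that extend the strands were called lower in their catalytic subunits. Pole, the catalytic subunit of polymerase epsilon on the leading strand, read 138 and 188 on the LT-HSC arrays and 712 and 637 on the ST-HSC arrays (-1.92, SE 0.28, adjusted p = 0.00998). Pold1, that of polymerase delta on the lagging strand, read 294 and 245 on the LT-HSC arrays and 1388 and 812 on the ST-HSC arrays (-1.97, SE 0.35, adjusted p = 0.0188). Of their partners among the 46 genes, Pole2 was called lower (-1.44, SE 0.30, adjusted p = 0.0289). Pole4 and Pold4 are given below with the other genes of replication. Pold2 (-0.31, interval -0.93 to 0.30), Pold3 (-0.39, interval -1.37 to 0.58) and Pole3 (-0.78, interval -1.48 to -0.08) did not pass. Pold3 read 518 and 533 on the LT-HSC arrays and 979.8 and 445 on the ST-HSC arrays, so the ST-HSC arrays lay on either side of LT-HSC, and the difference was 0.24 without ST-HSC replicate 2 and -1.02, which passed, without ST-HSC replicate 3. Pole3, which also serves in chromatin remodelling complexes, passed on a further probe set (-1.41, adjusted p = 0.0282).

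Among the clamp and its loaders, 4 of 7 genes were called lower in LT-HSC and 0 higher, with a median of -1.35. Dscc1, a subunit of the alternative clamp loader that acts with cohesin, had the lowest difference of the 46 genes with the settings used here. Mcm7 had the lowest with a pseudocount of 64 (-2.28, against -2.02 for Dscc1) and with probe sets averaged per gene (-2.42, against -1.79), and Gins2 without ST-HSC replicate 2 (-2.96, against -2.92). Dscc1 read 27.99 and 51.3 on the LT-HSC arrays and 337 and 402 on the ST-HSC arrays, 6.63-fold lower (-2.73, SE 0.31, adjusted p = 0.00412), and a dim second probe set was at -0.85 and did not pass. Pcna, the sliding clamp itself, read 1355 and 1491 on the LT-HSC arrays and 2670.3 and 3369.9 on the ST-HSC arrays, 2.54-fold lower (-1.35, SE 0.21, adjusted p = 0.0113). Dscc1 and Pcna had both LT-HSC arrays below both ST-HSC arrays, as did 35.7% of all genes.

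The RFC clamp loader has 5 subunits, of which Rfc4 and Rfc5 were called lower. Rfc5 read 287 and 281 on the LT-HSC arrays and 718 and 898 on the ST-HSC arrays (-1.48, SE 0.26, adjusted p = 0.0171). Rfc4 read 74.7 and 158 on the LT-HSC arrays and 327 and 558 on the ST-HSC arrays (-1.68, SE 0.40, adjusted p = 0.0419). Rfc2 read 957 and 965 on the LT-HSC arrays and 1955 and 1209 on the ST-HSC arrays, without overlap, and missed the threshold (-0.84, adjusted p = 0.11). It was called when either ST-HSC array was left out (-0.45 without replicate 2, -1.28 without replicate 3). Rfc1, the large subunit, was at -0.84 with an interval from -1.60 to -0.09 and did not pass. Rfc3 read 58.0 and 132 on the LT-HSC arrays and 81.8 and 60.7 on the ST-HSC arrays, with overlapping groups (0.43, interval -0.42 to 1.29). Its second probe set lay at -1.53 and did not pass either (adjusted p = 0.124), so the direction of Rfc3 was not settled by these arrays.

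Of the 6 analysed genes that protect, join or package new strands, 4 were called lower in LT-HSC and 0 higher, with a median of -1.46. Lig1, the ligase that seals Okazaki fragments, read 370.3 and 406 on the LT-HSC arrays and 1531 and 1376 on the ST-HSC arrays (-1.96, SE 0.24, adjusted p = 0.00486). Rpa1 and Rpa2, subunits of the protein that coats single-stranded DNA, read 948 and 1004 and 249.9 and 303 in LT-HSC. In ST-HSC Rpa1 read 2574 and 2162 and Rpa2 read 730.0 and 838, which made them 2.75-fold and 2.77-fold lower in LT-HSC (adjusted p = 0.00794 and 0.0172). Chaf1b, a subunit of the chromatin assembly factor that places histones on new DNA, read 195 and 121 on the LT-HSC arrays and 476 and 605 on the ST-HSC arrays (-1.68, SE 0.35, adjusted p = 0.0294).

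Rpa3, the small RPA subunit, read 139 and 143 on the LT-HSC arrays and 206 and 569 on the ST-HSC arrays, and its SD of 1.06 between ST-HSC arrays was the largest of the 46 genes. It did not pass (-1.07, SE 0.50, adjusted p = 0.199). Fen1, the flap nuclease that trims Okazaki fragments, read 1527 and 1419 on the LT-HSC arrays and 2141 and 1388 on the ST-HSC arrays, so that the deposited intensities overlapped. Its brightest probe set was at -0.44 (interval -1.08 to 0.20) and a dimmer one at -1.14 (adjusted p = 0.0955). Fen1 was at -0.08 without ST-HSC replicate 2 and at -0.82 without ST-HSC replicate 3.

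**Figure D3:**
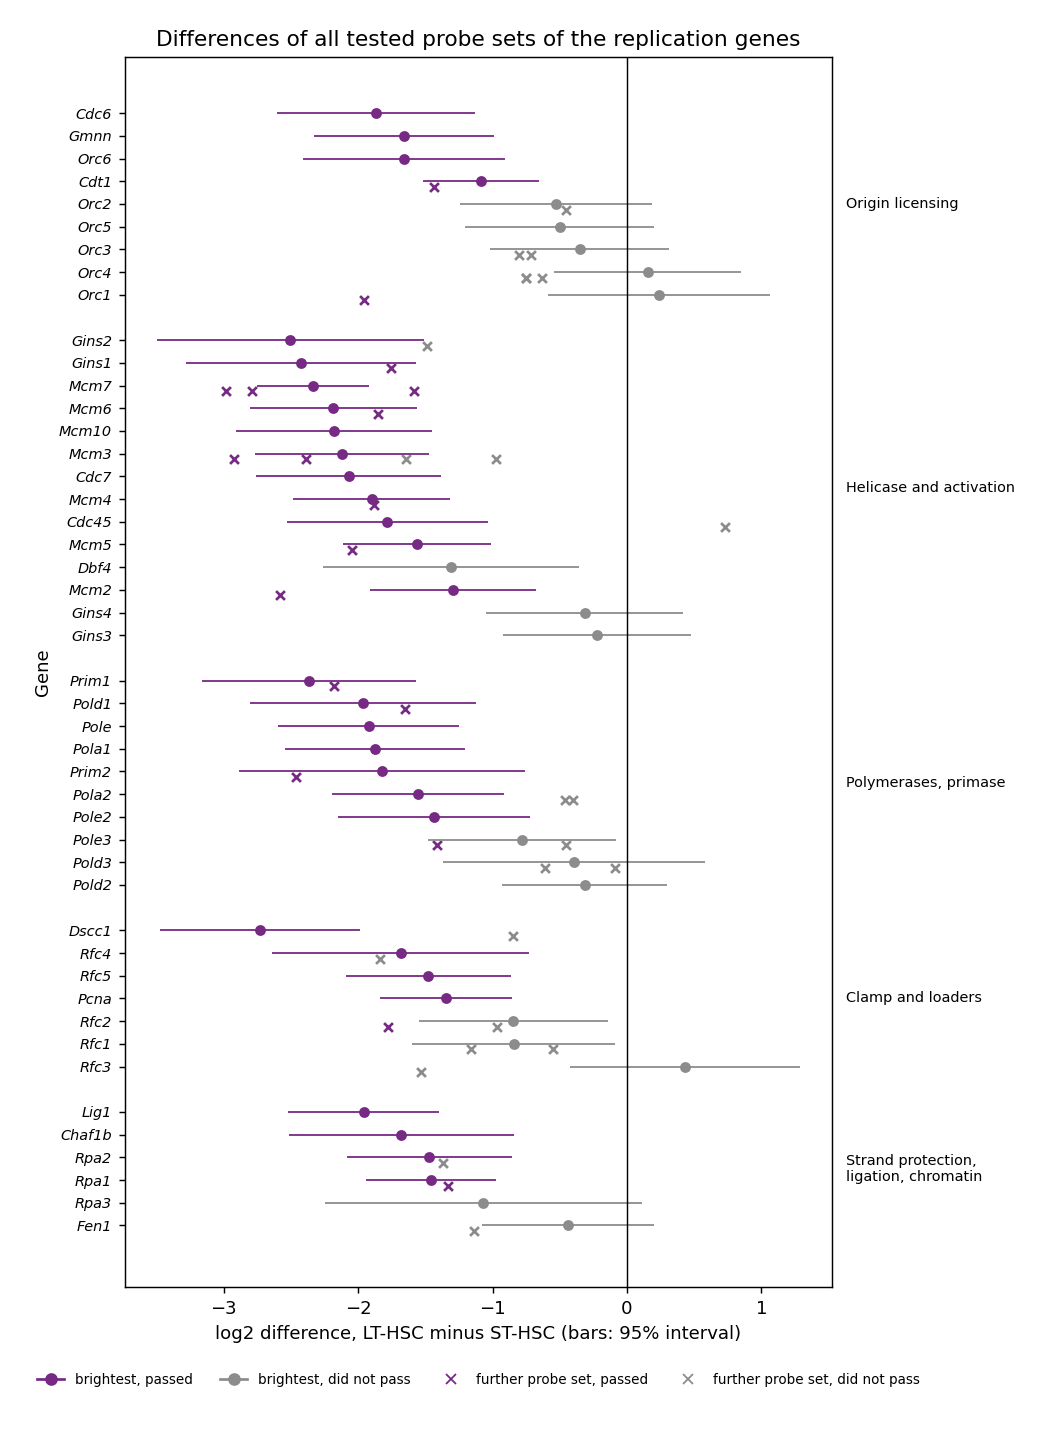
Log2 difference, LT-HSC minus ST-HSC (x axis), of the 87 tested probe sets of 46 replication genes, which run down the page by step. Circles with bars are the brightest probe set with its unadjusted 95% interval, crosses are further probe sets, and purple marks an adjusted p under 0.05. Of the 87 probe sets 83 lie left of 0 and 48 are purple, all of these to the left.

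Over all probe sets of these genes, 48 of 87 tested were called lower and 0 higher, where 5.48% of all probe sets were called lower and 6.72% higher. Of 28 genes with at least 2 tested probe sets, 24 had the same sign in all of them, the exceptions being Orc1, Orc4, Cdc45 and Rfc3. In 12 genes the brightest and a further probe set were called, in 6 the brightest alone, and in 3 (Orc1, Pole3 and Rfc2) only a further one. The other 18 genes had 1 tested probe set and so no such check. Of the 16 genes that did not pass, Dbf4, Pole3, Rfc1 and Rfc2, 4 in all, had unadjusted intervals below 0. Some calls depended on the processing: arrays centred on their medians lost Cdt1, Mcm2 and Pcna, the fit without the filter on dim probe sets lost Prim2 and Rfc4, and the fit without an intensity trend lost Cdt1, Mcm2, Prim2 and Rfc4. Averaging all probe sets of a gene lost Cdc45, Cdc7, Cdt1, Mcm10, Pola2 and Chaf1b and added Rfc2 and Orc1.

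The size of the gap between arrays of 1 group, whatever its sign, had a median of 0.15 on the log2 scale over the 46 genes for LT-HSC and 0.36 for ST-HSC. The signed median over the 46 genes of LT-HSC replicate 2 minus LT-HSC replicate 1 was 0.10, and 31 genes were higher on replicate 2. The signed median of ST-HSC replicate 3 minus ST-HSC replicate 2 was 0.19, and 28 genes were higher on replicate 3. The widest ST-HSC gaps belonged to Rpa3, Pold3, Dbf4 and Prim2, of which only Prim2 passed.

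Other genes of replication were taken from a list of 31 made by function: of 30 tested, 13 were called lower in LT-HSC, 1 higher and 16 did not pass, with a median of -1.27. Lrwd1, which binds the origin recognition complex, read 221 and 291 on the LT-HSC arrays and 1026 and 1221 on the ST-HSC arrays (-2.12, SE 0.26, adjusted p = 0.00511). Uhrf1, which guides maintenance methylation at new DNA, was at -2.60 (adjusted p = 0.006). Timeless, of the fork protection complex, was at -2.05 (adjusted p = 0.00845), and Atad5, which unloads the clamp, at -2.22 (adjusted p = 0.0132). Top1, the topoisomerase that relaxes supercoils ahead of forks and of transcription, was the only gene of the list called higher. It read 1089 and 1051 on the LT-HSC arrays and 408 and 299.8 on the ST-HSC arrays (2.83-fold higher, SE 0.26 on the log2 scale, adjusted p = 0.0168). Pole4, of polymerase epsilon, did not pass (0.56, adjusted p = 0.215) and had both LT-HSC arrays above both ST-HSC arrays, as did 28.6% of all genes. Pold4, of polymerase delta, overlapped and did not pass (-0.20, adjusted p = 0.744).

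DNA polymerases of repair, bypass and mitochondria were set beside the replication genes, without a test between the lists. Of 14 genes, 12 were tested, 0 were called in either direction by limma, 0 had an unadjusted p under 0.05, and the median was -0.34. Polm and Polq were left out by the filter on dim probe sets. Polm read 28.6 and 46.6 on the LT-HSC arrays and 2.23 and 2.93 on the ST-HSC arrays. Polq read 7.73 and 7.87 on the LT-HSC arrays and 8.93 and 15.8 on the ST-HSC arrays. The differences of the 12 tested genes ran from -0.76 (Mad2l2) to 0.76 (Polg). The genes of smallest p were Poli (-0.67), Polk (-0.72), Mad2l2 (-0.76) and Poll (-0.50). The highest of these differences, Polg, rests on LT-HSC replicate 1, which read 604 against 155 on LT-HSC replicate 2 and 164 and 200.3 in ST-HSC. Without ST-HSC replicate 2, 2 of these genes were called lower.

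Of 13 E2F factors, partners and pocket proteins, 4 were called lower in LT-HSC and 1 higher, with a median of -0.86. Those lower were Rbl1, the pocket protein p107 (-1.75, adjusted p = 0.0126), Tfdp1, the partner of E2F factors (-1.81, adjusted p = 0.0151), and the repressors E2f7 (-2.02, adjusted p = 0.0146) and E2f8 (-1.62, adjusted p = 0.0424). E2f5 was higher, at 621 and 507 on the LT-HSC arrays and 287 and 161 on the ST-HSC arrays (1.32, adjusted p = 0.0486). The 3 activators of S phase genes did not pass and did not share a direction: E2f1 was dim and overlapped (-0.77, adjusted p = 0.333), E2f2 was at 1.003 with both LT-HSC arrays above both ST-HSC arrays (adjusted p = 0.0745), and E2f3 was at -0.93 with both below (adjusted p = 0.0686). Of 11 tested proliferation markers, 10 were called lower in LT-HSC and 0 higher, with a median of -2.55. Top2a (-2.59, adjusted p = 0.00389), Tpx2 (-2.20, adjusted p = 0.0125), Aurka (-2.69, adjusted p = 0.0115) and Aurkb (-2.72, adjusted p = 0.0129) had the smallest p.

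**Figure D4:**
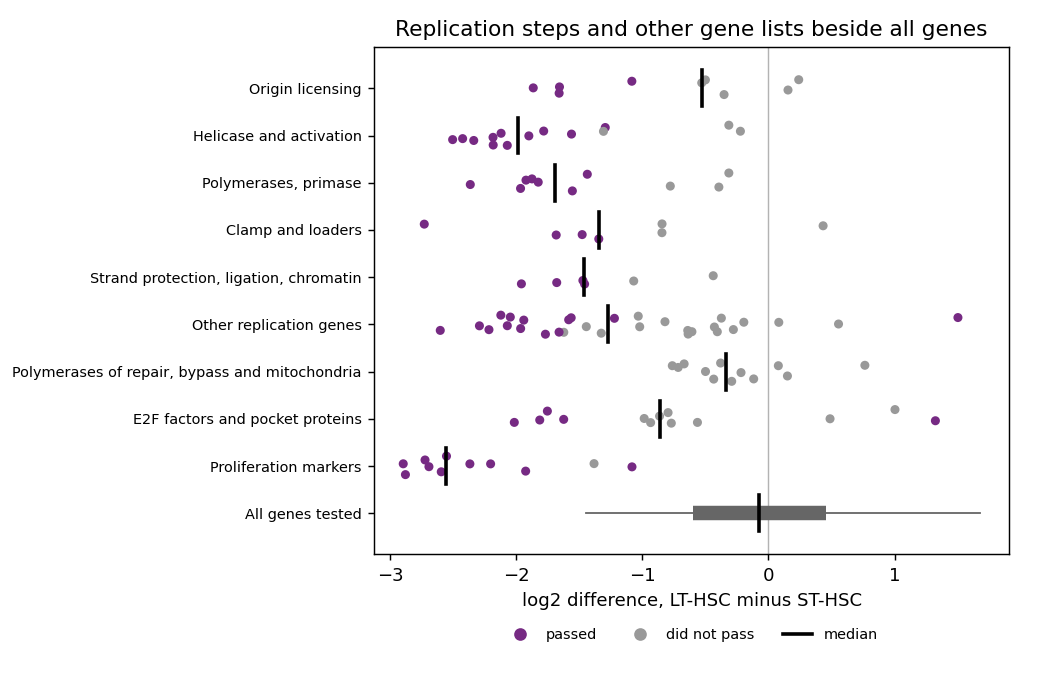
Log2 difference, LT-HSC minus ST-HSC (x axis), of each tested gene of the 5 replication steps and 4 other lists, with black bars at the medians and purple points for an adjusted p under 0.05. The last line shows all 12832 genes, with a thick bar from the 25th to the 75th percentile (-0.60 to 0.46) and a thin line from the 5th to the 95th (-1.45 to 1.68). The helicase median is -1.99, that of origin licensing -0.53, and that of polymerases of repair, bypass and mitochondria -0.34.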

How the data were processed

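Per the labels' protocols, Trizol RNA of sorted cells went through 2 amplification rounds and biotin labelling. The authors deposited 1 linear intensity for each probe set of an array; for the summarising software and any scaling the sources used here give no name. Median intensities were 19.1 and 28.3 (LT-HSC) and 26.9 and 25.9 (ST-HSC). Arrays carry no counts, so their number limits the precision.

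Of 45101 probe sets, 64 Affymetrix controls were left out. Values were taken as log2(intensity + 16), which understates folds of dim probe sets, and quantile normalized; probe sets with a mean not above the 40th percentile were dropped, leaving 27022. The groups were fitted in limma 3.58.1 (R 4.3.3; lmFit, eBayes with an intensity trend, 2 residual and 4.84 prior degrees of freedom). An exact permutation test of 2 against 2 cannot go below p = 0.33, so none was used. The platform annotation gave 1 symbol to 34945 probe sets, several to 932 and none to 9160; 34741 matched RefSeq (GRCm38.p6) by Entrez identifier and 0 symbols changed.

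The genes and lists were chosen with earlier results of these data known. Values per array are given for the 5 genes of smallest p per step and for genes higher in LT-HSC; for other lists the 4 of smallest p and exceptions are named. Others with per-array values (such as Gins1 to Gins4, Dbf4, Pold3, Fen1, Polg, Polm and Polq), and Pole4 and Pold4, were picked after their values were seen. The procedure was tested on simulated data. An allele that the mice of both groups share is not reported here.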

Additional observations from a re-analysis of the deposited data

How the results depend on the processing

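Leaving out either LT-HSC array lost 29 of the 30 calls; leaving out either ST-HSC array kept all 30 and added 5, and averaging probe sets per gene lost 6 and added 2. The lone array left in a group was assumed to vary like the other group. No paired analysis was possible because the groups share only 1 replicate number. With each array left out in turn, 1 to 35 replication genes were called lower in LT-HSC: 0 to 5 of origin licensing, 1 to 12 of the helicase, 0 to 8 polymerases, 0 to 6 of the clamp and its loaders, and 0 to 5 of strand protection. The medians then ranged from -0.70 to -0.45 (licensing), -2.28 to -1.90 (helicase), -1.69 to -1.40 (polymerases), -1.55 to -1.24 (clamp) and -1.73 to -1.35 (strand protection). Called lower in the other lists were 0 to 20 other replication genes, 0 to 2 polymerases outside the fork, 0 to 8 E2F and pocket genes and 0 to 11 proliferation markers, and over all probe sets 13 to 4527 were lower and 401 to 4247 higher. The remaining 7 alternatives called 26 to 31 replication genes lower and 0 higher. All 30 genes called with the main settings stayed negative in all 11 alternatives. Their lack of overlap between the groups made this likely beforehand, above all with an array left out. A pseudocount of 64 gave medians of -1.35 (all replication genes), -1.72 (helicase), -1.46 (polymerases) and -1.37 (strand protection), and a pseudocount of 1 gave -1.82 for the polymerases. Arrays centred on their medians gave -0.96 (clamp) and -1.25 (strand protection), and no normalization -1.07 and -1.36. Probe sets averaged per gene gave -1.21 (all), -0.78 (licensing), -1.40 (helicase), -1.08 (polymerases) and -1.23 (strand protection), with 2 E2F and pocket genes called lower and 1034 averaged genes called higher. This averaging turned Orc1 to -0.86, Orc4 to -0.49 and Rfc3 to -0.55. With each array left out, Orc1 ranged from -0.052 (without ST-HSC replicate 3) to 0.51, Orc4 from -0.13 (without LT-HSC replicate 1) to 0.22, Pold3 from -1.02 to 0.24 (without ST-HSC replicate 2) and Rfc3 from -1.20 (without LT-HSC replicate 2) to 0.79. In these fits the brightest probe set was chosen again, and it changed for 3 genes in 3 of the 4. With the probe sets of the full data kept, an alternative added after seeing the data, Orc4 was at 0.10 without LT-HSC replicate 1 and Rfc3 at 0.06 without LT-HSC replicate 2, so neither turned, and the counts were again 1 to 35. The cause of the other changes was not tested. Signal near the array medians, as for Dscc1 in LT-HSC, makes a fold depend on the pseudocount.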
